A study of Mus musculus with 6 samples.

Results

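This account covers 34 endothelial genes of the mouse, chosen by name as genes for endothelial junctions, receptors, secreted products and transcription factors, out of 18194 genes measured in injured carotid arteries. Each gene is represented by the probe set that names it alone and is brightest over the 6 arrays, and all 34 genes had one. Together they had 64 probe sets. The arteries came from mice with a global knockout of IRF4 (IRF4 KO), an interferon regulatory factor, and from wild-type mice (WT), and both genotypes had been wire-injured 14 days earlier. Each genotype had 3 arrays, each array held pooled RNA of 3 to 5 vessels, and 400 ng of total RNA was labelled per array. The sources used here do not give age, sex, strain or the deleted part of Irf4. All arteries were injured, so levels cannot be set against an uninjured wall.

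The endothelium is the single layer of cells that lines an artery. It keeps the lumen free of clots, controls vessel tone through nitric oxide, and seals the wall with cadherin and claudin junctions. Passing a wire through the lumen scrapes this layer off, and it grows back from the uninjured ends of the vessel while smooth muscle cells build a neointima beneath it. RNA of the whole wall also holds the endothelium of small vessels in the adventitia. In such RNA, fewer endothelial cells and less RNA per endothelial cell cannot be told apart.

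The values are log2 probe set intensities after RMA, on which a difference of 1 is a 2-fold change. A probe set's level depends on its probes, so levels are compared between arrays and not between genes. Of the 34 genes, 31 averaged above 4.89, the median gene's mean level, and the exceptions were Robo4, Gja5 and Aplnr. That median serves only to mark dim probe sets, and the files used here hold no detection call for any marker.

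The 2 probe sets of Irf4 read 3.04 to 3.75 in IRF4 KO, against 3.10 to 3.90 in WT, below the median gene level and overlapping. The arrays therefore do not check the genotype labels. IRF4 KO 1 and WT 3 stood apart from the other 4 arrays. Their poly-A controls, bacterial RNAs spiked in ahead of labelling, averaged 5.14 and 4.93, against 7.35 to 9.26 on the other arrays. Markers of leukocytes and macrophages averaged 2.22 and 1.41 above their own means on these arrays, against -1.19 to -0.42 on the others, and cartilage markers 2.44 and 2.37, against -1.37 to -0.94. The leukocyte gene Ptprc and the cartilage gene Col2a1, named after their values were seen, read 7.68 and 7.70 and 12.16 and 12.07 on IRF4 KO 1 and WT 3, and at most 4.43 and 5.15 on the other arrays. Smooth muscle markers averaged -0.21 and -0.26 there, against -0.23 to 0.38 on the others.

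No endothelial gene passed the test between IRF4 KO and WT arteries. With limma, 0 of the 34 genes had an adjusted p under 0.05, where 0% of all genes did. At an unadjusted p under 0.05 there were also 0 of the 34, against 1.49% of all genes. A higher mean in IRF4 KO was found in 17 genes and a lower one in 17, and 49.7% of all genes were higher. Among the genes above the median gene level, where 31 of the 34 members lie, 38.9% were higher. After quantile normalization 22 members were higher, against 50.8% of all genes, and with the mean of all probe sets per gene 22, against 52.1%. Without WT 3 the count was 26, against 49.7% of all genes, and without WT 1 it was 12, against 8893 of 18194 genes. The median log2 change (IRF4 KO minus WT) was 0.023 over the 34 genes and -0.0015 over all genes. It was -0.067 over the genes above the median gene level. The intervals show what the arrays could resolve. The 95% interval of the change stayed between -1 and 1 for 19 genes and reached 1 or more in size for the other 15. The 19 include the dim genes Robo4, Gja5 and Aplnr, whose changes RMA may understate.

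**Figure D1:**
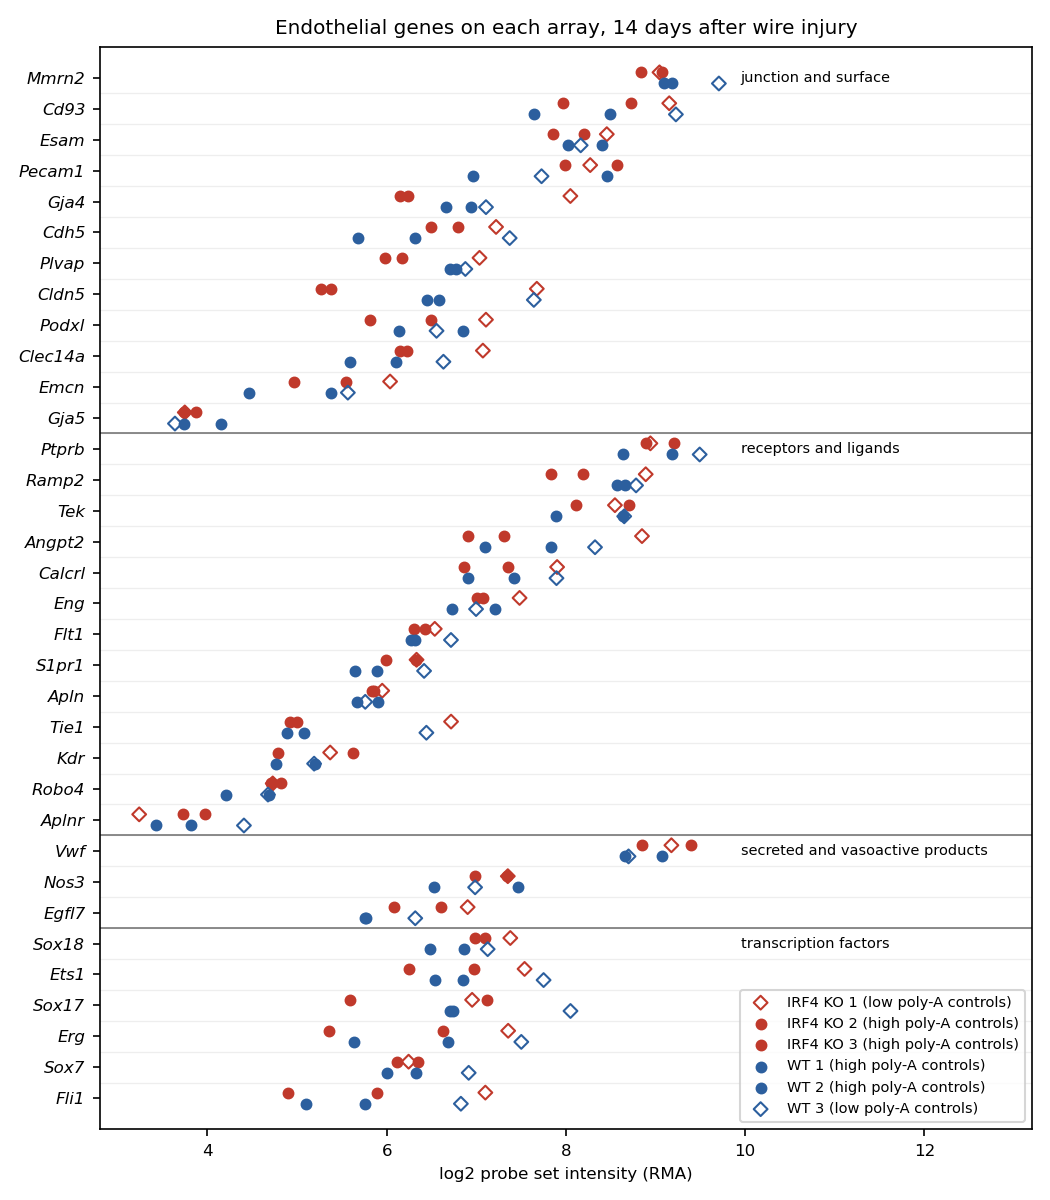
Log2 probe set intensity of the 34 endothelial genes (rows, grouped by role) on each of the 6 arrays, with IRF4 KO in red above WT in blue and open diamonds for the 2 arrays with low poly-A controls. The genotypes overlap in every row but Robo4 and Mmrn2, and the open diamonds lie at the right of many rows, as for Cldn5 and Tie1.

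Junction and surface genes give endothelium its seal, and none of the 12 was called. Pecam1 encodes CD31, an adhesion molecule of endothelial junctions that platelets and leukocytes also carry. It read 8.27, 7.99 and 8.57 in IRF4 KO, against 6.96, 8.46 and 7.73 in WT. WT 1 was the lowest array and the others overlapped, and the change was 0.56 (SE 0.36, limma adjusted p = 0.999). It was 0.18 without WT 1, 0.93 without WT 2, where the genotypes did not overlap, and -0.21 with arrays weighted by their fit. The estimation of those weights stopped before it converged. It gave IRF4 KO 2 a weight of 26.7, against 0.333 and 0.279 for IRF4 KO 1 and 3. Cdh5, the VE-cadherin of adherens junctions, read 7.22, 6.80 and 6.49 in IRF4 KO, against 5.68, 6.32 and 7.37 in WT. The highest and the lowest Cdh5 value both lay in WT, and the change was 0.38 (SE 0.41, adjusted p = 0.999).

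Cldn5, the claudin of endothelial tight junctions, had the largest change in size of the 34 genes and the widest interval. It read 7.67, 5.27 and 5.38 in IRF4 KO, against 6.59, 6.45 and 7.64 in WT. IRF4 KO 2 and 3 were below every WT array, while IRF4 KO 1 was level with WT 3. The change was -0.78 (SE 0.63, 95% interval -2.23 to 0.66, limma adjusted p = 0.999). It was -1.57 without IRF4 KO 1, where the genotypes did not overlap (limma adjusted p = 0.868), -0.37 without IRF4 KO 2, -0.42 without IRF4 KO 3 and -0.41 without WT 3. Plvap, Gja4 and Ramp2 had a similar layout. The first of them, Plvap, which forms the diaphragms of endothelial caveolae and fenestrae, read 7.04, 6.17 and 5.98 in IRF4 KO, against 6.71, 6.77 and 6.88 in WT. Gja4, the gap junction protein connexin 37, read 8.05, 6.24 and 6.15 in IRF4 KO, against 6.66, 6.94 and 7.11 in WT. Ramp2, the partner that makes the adrenomedullin receptor out of the product of Calcrl, read 8.89, 8.19 and 7.83 in IRF4 KO, against 8.65, 8.57 and 8.78 in WT. In each of these, IRF4 KO 1 was the highest of the 6 arrays and IRF4 KO 2 and 3 were the lowest.

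Mmrn2, an extracellular matrix protein that binds the endothelial lectins CLEC14A and CD93, was the only member whose IRF4 KO arrays all lay below the WT arrays. It read 9.04, 9.07 and 8.83 in IRF4 KO, against 9.19, 9.09 and 9.71 in WT. The highest IRF4 KO array and the lowest WT array, 9.07 and 9.09, lay close together. The change was -0.34 (SE 0.22, limma adjusted p = 0.999), and the two-sided exact permutation p was 0.1, the smallest that 3 arrays against 3 allow. Its 3 other probe sets, all above the median gene level, differed by 0.12, -0.19 and -0.59, so they did not share a direction, and the last also had no overlap. In a limma fit over the single-symbol probe sets, that last one had an unadjusted p of 0.032 and an adjusted p of 0.9996. The changes of the Mmrn2 partners, 0.38 for Clec14a and 0.16 for Cd93, had the opposite sign to that of Mmrn2. Clec14a averaged 6.48 ± 0.51 in IRF4 KO and 6.11 ± 0.52 in WT (SD, n = 3), and Cd93 averaged 8.61 ± 0.60 and 8.45 ± 0.79, again IRF4 KO and WT.

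The remaining surface genes overlapped between the genotypes. Esam, a junctional adhesion molecule, averaged 8.17 ± 0.30 in IRF4 KO and 8.20 ± 0.19 in WT, with an interval of -0.53 to 0.48. The sialomucin Emcn averaged 5.52 ± 0.54 in IRF4 KO and 5.14 ± 0.59 in WT. Podxl, a sialomucin of the luminal surface, averaged 6.47 ± 0.65 in IRF4 KO and 6.51 ± 0.36 in WT. Gja5, the arterial connexin 40, was dim at 3.79 ± 0.07 in IRF4 KO and 3.84 ± 0.27 in WT, under the median gene level. Among the 12 junction and surface genes, the IRF4 KO mean was above the WT mean in 5 and below it in 7, with a median change of -0.03.

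The receptors of the VEGF and angiopoietin systems, which drive endothelial growth and quiescence, overlapped between the genotypes. Kdr, the main signalling receptor for VEGF-A, read 5.37, 4.79 and 5.63 in IRF4 KO, against 5.19, 4.76 and 5.19 in WT. Flt1, a VEGF receptor that also acts as a decoy, read 6.54, 6.30 and 6.43 in IRF4 KO, against 6.28, 6.32 and 6.72 in WT. Both genes overlapped between the genotypes, with changes of 0.21 (SE 0.26) and -0.01 (SE 0.20). The second probe set of Flt1 by level differed by 0.43 and spread more widely, with SDs of 0.51 in IRF4 KO and 0.86 in WT.

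Tek, the angiopoietin receptor TIE2, read 8.55, 8.70 and 8.12 in IRF4 KO, against 7.89, 8.64 and 8.65 in WT. Its relative Tie1 read 6.72, 5.00 and 4.92 in IRF4 KO, against 4.88, 5.08 and 6.44 in WT. Tie1 was thus split by array and not by genotype: IRF4 KO 1 and WT 3 were high and the other 4 arrays lay between 4.88 and 5.08. Angpt2, the angiopoietin that activated endothelial cells release, had a similar order at 8.85, 7.30 and 6.90 in IRF4 KO, against 7.10, 7.84 and 8.32 in WT. Ptprb, the phosphatase VE-PTP that dephosphorylates TIE2, averaged 9.01 ± 0.17 in IRF4 KO and 9.10 ± 0.43 in WT. The changes were 0.06 for Tek, 0.08 for Tie1, -0.07 for Angpt2 and -0.09 for Ptprb.

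Robo4, an endothelial guidance receptor that stabilises vessels, was the only member whose IRF4 KO arrays all lay above the WT arrays. It read 4.73, 4.82 and 4.71 in IRF4 KO, against 4.68, 4.21 and 4.68 in WT. All 6 values were below the median gene level, and the gap between the lowest IRF4 KO array and the highest WT array was narrow. The change was 0.23 (SE 0.20, limma adjusted p = 0.999, two-sided exact permutation p = 0.1). Robo4 and Mmrn2 together made 2 of 34 members without overlap, 5.88%, where 5.68% of all genes had none. Robo4 was 1 member above, against 2.37% of genes, and Mmrn2 1 below, against 3.31%. Single arrays moved this count. It was 6 without IRF4 KO 1 (20.2% of genes), 3 without IRF4 KO 2 (12.2%), 4 without IRF4 KO 3 (11.0%), 4 without WT 1 (16.3%), 4 without WT 2 (12.1%) and 7 without WT 3 (14.2%). With all arrays it was 4 after quantile normalization (7.33%), and 1 each with the mean of all probe sets per gene (5.73%), with each array's median subtracted (6.50%) and with dim genes left out (5.87%). Mmrn2 overlapped after quantile normalization and with the mean of all probe sets, and Robo4 overlapped with each array's median subtracted, so neither lacked overlap under every scaling. Robo4 is itself among the dim genes left out.

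Other receptors and ligands lay close together. Eng, a TGF-beta co-receptor, averaged 7.19 ± 0.26 in IRF4 KO and 6.98 ± 0.24 in WT, and its other probe set differed by 0.14. S1pr1, the sphingosine-1-phosphate receptor that tightens the barrier, averaged 6.22 ± 0.19 in IRF4 KO and 5.99 ± 0.39 in WT. Calcrl averaged 7.37 ± 0.52 in IRF4 KO and 7.41 ± 0.49 in WT. Apln, a peptide made by growing endothelial tips, had the narrowest interval of the 34 genes, -0.30 to 0.50, at 5.88 ± 0.06 in IRF4 KO and 5.78 ± 0.11 in WT. Its receptor Aplnr was dim, at 3.65 ± 0.38 in IRF4 KO and 3.88 ± 0.49 in WT. Of the 13 receptors and ligands 7 had the higher mean in IRF4 KO and 6 in WT, with a median change of 0.06.

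All 3 genes for secreted and vasoactive products had higher means in IRF4 KO, without passing the test. Vwf, the clotting factor stored by endothelial cells and platelets, read 9.18, 9.40 and 8.85 in IRF4 KO, against 8.66, 9.07 and 8.70 in WT, a change of 0.33 (SE 0.22). Nos3, the endothelial nitric oxide synthase, read 7.35, 7.34 and 6.99 in IRF4 KO, against 6.53, 7.47 and 6.99 in WT, a change of 0.23 (SE 0.27). In Vwf, WT 2 lay within the IRF4 KO range, and in Nos3 it lay above it. Egfl7, an extracellular factor of growing endothelium, read 6.90, 6.60 and 6.08 in IRF4 KO, against 5.77, 5.76 and 6.32 in WT. Only WT 3 overlapped IRF4 KO, and the change was 0.58 (SE 0.27, interval -0.04 to 1.20). Its unadjusted p of 0.063 was the smallest of the 34 genes and its limma adjusted p was 0.999. After quantile normalization the genotypes did not overlap in Egfl7, Sox18 and Vwf, at unadjusted limma p of 0.0081, 0.033 and 0.072. The adjusted p of each was again 0.999. The 3 other Egfl7 probe sets differed by 0.15, 0.23 and 0.03, in the same direction and by less.

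**Figure D2:**
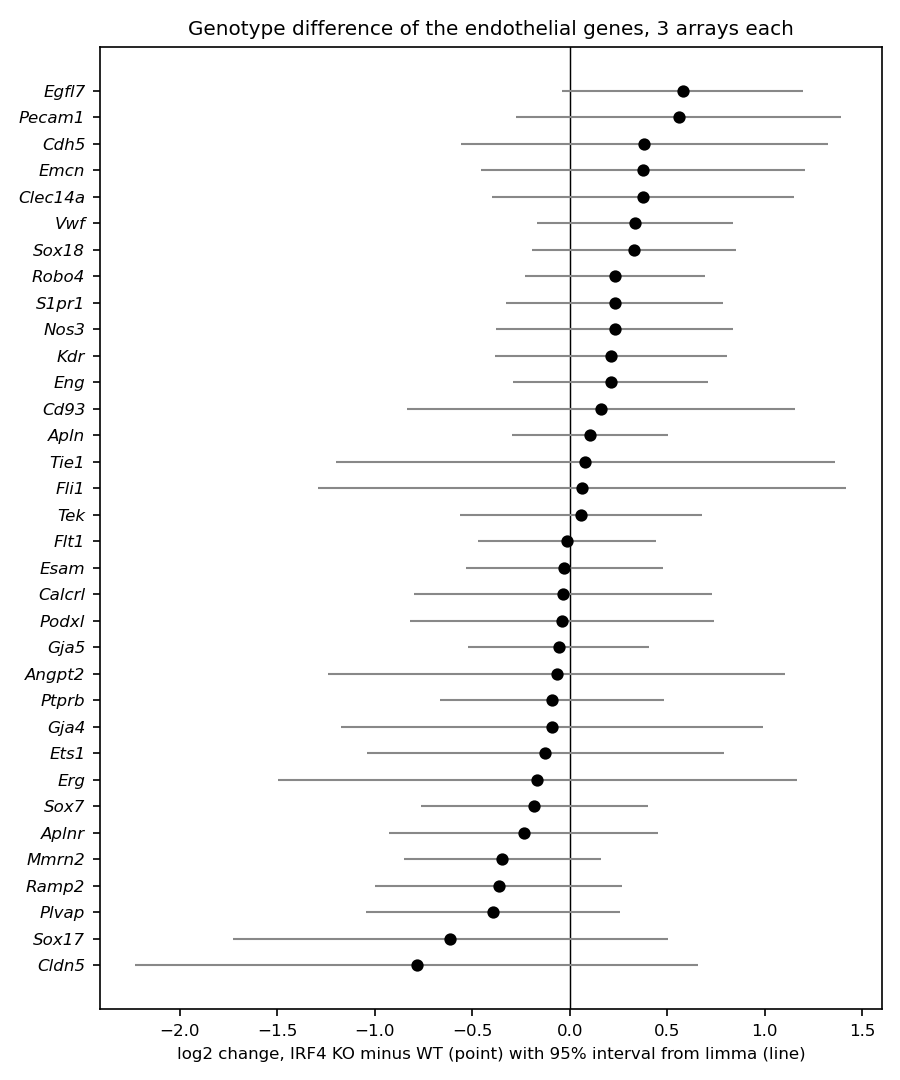
Log2 change (IRF4 KO minus WT, 3 arrays each) of the 34 endothelial genes, ordered by size, with its 95% interval from limma. Every interval includes 0, from Egfl7 at 0.58 to Cldn5 at -0.78, and the intervals differ several times in width.

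The transcription factors of the set belong to the ETS and SOX families, which switch on endothelial genes. Erg, an ETS factor enriched in endothelium, read 7.36, 6.62 and 5.35 in IRF4 KO, against 5.64, 6.69 and 7.50 in WT. Fli1, an ETS factor of endothelial and blood cells, read 7.10, 5.89 and 4.89 in IRF4 KO, against 5.10, 5.76 and 6.83 in WT. Each genotype therefore held 1 high, 1 middle and 1 low array for both factors. Ets1, which lymphocytes also express, averaged 6.92 ± 0.65 in IRF4 KO and 7.05 ± 0.63 in WT with the same order of arrays within each genotype. The changes were -0.17 for Erg (SE 0.58), 0.07 for Fli1 (SE 0.59) and -0.13 for Ets1 (SE 0.40).

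Sox17, which specifies arterial endothelium, read 6.95, 7.12 and 5.59 in IRF4 KO, against 6.74, 6.71 and 8.05 in WT. Its change of -0.61 (SE 0.49, limma adjusted p = 0.999) came with 1 low IRF4 KO and 1 high WT array, and on its other probe set it was -0.03. Sox18 averaged 7.15 ± 0.21 in IRF4 KO and 6.82 ± 0.32 in WT, and Sox7 6.24 ± 0.11 and 6.42 ± 0.46, again IRF4 KO and WT. Sox18 and Sox7 act with Sox17 in vessel growth, and the SOX members did not share a direction. Of the 6 factors, 2 had the higher mean in IRF4 KO and 4 in WT.

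The promoters of the set were read for the letters that ETS factors prefer, since Erg, Fli1 and Ets1 are members themselves. RefSeq windows (GRCm38.p6) were given for 15 of the 34 genes, and the 250 bases before the start were searched on both strands. The ETS core AGGAAG was in a window of 10 of the 15 genes, 66.7%, against 32.3% of 27025 genes with a window. The SOX core ACAAT was in 7 of the 15, 46.7%, against 30.9% of genes. The ETS-IRF composite, the joint site of IRF4 and PU.1, was searched as GGAA, any 2 bases and GAAA. It was in 0 of the 15 genes, against 2.68% of genes, and the interferon element, GAAA, any 2 bases and GAAA, was in 0, against 3.46%. These counts describe letters and not binding, and a gene with several windows has more chances of a match. The composite and the interferon element are so rare among all genes that 15 genes will often hold none. Their 0 counts therefore do not show a lack of either. Windows are printed for 3 genes, with AGGAAG or its reverse complement CTTCCT in capitals: Tie1 for its split by array, Robo4 for its lack of overlap, and Egfl7 for the smallest p of the set and 3 cores in 1 window.
Tie1 (chr4:118489850-118490099, minus strand): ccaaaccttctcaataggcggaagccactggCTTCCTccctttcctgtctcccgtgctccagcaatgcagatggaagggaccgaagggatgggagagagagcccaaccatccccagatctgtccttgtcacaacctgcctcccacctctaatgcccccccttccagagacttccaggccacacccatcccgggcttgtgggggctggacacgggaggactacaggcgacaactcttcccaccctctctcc
Robo4 (chr9:37401722-37401971, plus strand): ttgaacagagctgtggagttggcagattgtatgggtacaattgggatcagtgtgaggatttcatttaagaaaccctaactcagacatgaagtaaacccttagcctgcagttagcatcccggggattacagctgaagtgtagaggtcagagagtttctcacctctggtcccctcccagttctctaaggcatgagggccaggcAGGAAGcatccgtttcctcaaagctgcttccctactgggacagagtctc
Egfl7 (chr2:26580833-26581082, plus strand): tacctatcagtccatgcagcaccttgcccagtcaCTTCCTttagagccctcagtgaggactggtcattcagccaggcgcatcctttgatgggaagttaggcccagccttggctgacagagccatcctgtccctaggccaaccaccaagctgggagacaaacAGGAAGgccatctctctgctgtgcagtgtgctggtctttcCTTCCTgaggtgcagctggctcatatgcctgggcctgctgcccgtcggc
The Tie1 core began 219 bases before the start and the Robo4 core 49 bases before it. The printed Egfl7 window is the first of 3 given for that gene.

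The endothelial genes also differed among arrays of 1 genotype. The median of the 34 genes, each relative to its own mean over the 6 arrays, was 0.40, -0.02 and -0.19 in IRF4 KO 1 to 3, against -0.39, -0.06 and 0.29 in WT 1 to 3. The same median over all genes lay between -0.038 and 0.012 on every array, and over the genes above the median gene level it was 0.10, 0.02 and -0.26 in IRF4 KO, against -0.09, 0.05 and 0.14 in WT. IRF4 KO 1 or WT 3 was the highest array for 27 members, where one of them was highest for 36.5% of all genes and for 54.3% of the genes above the median level. IRF4 KO 3 or WT 1 was the lowest array for 26 members, against 42.8% and 66.8%.

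**Figure D3:**
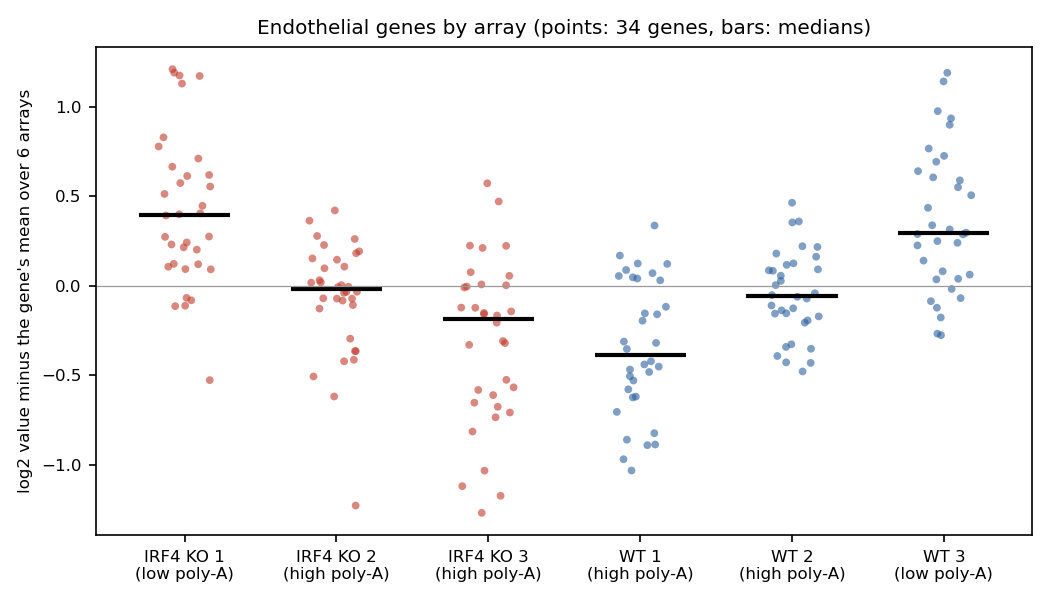
Each of the 34 endothelial genes on each array as log2 value minus the gene's mean over the 6 arrays, with IRF4 KO (red) left of WT (blue) and bars at the medians. The medians of IRF4 KO 1 (0.40) and WT 3 (0.29) are the highest and that of WT 1 (-0.39) is the lowest.

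In 17 members IRF4 KO 1 and WT 3 were both above the other 4 arrays, and in 0 members both were below. Among all genes 17.4% were above in this way and 19.8% below, and among the genes above the median level 26.0% were above and 8.62% below. The members differed widely in this respect. Cldn5, Tie1, Fli1, Erg and Angpt2 were higher on these arrays by 1.74, 1.61, 1.55, 1.35 and 1.30, while Vwf (-0.06), Pecam1 (0.00), Apln (0.04), Nos3 (0.09) and Robo4 (0.10) were level. The junction genes Cdh5 (0.97) and Esam (0.19) also stood apart from each other. Leukocyte and macrophage markers moved with the first group: 9 of 12 were above the other 4 arrays on both, as were 7 of 8 fibroblast, 11 of 12 cartilage and 3 of 8 pericyte markers, but 0 of 10 smooth muscle markers. Their part in the endothelial values was not tested.

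**Figure D4:**
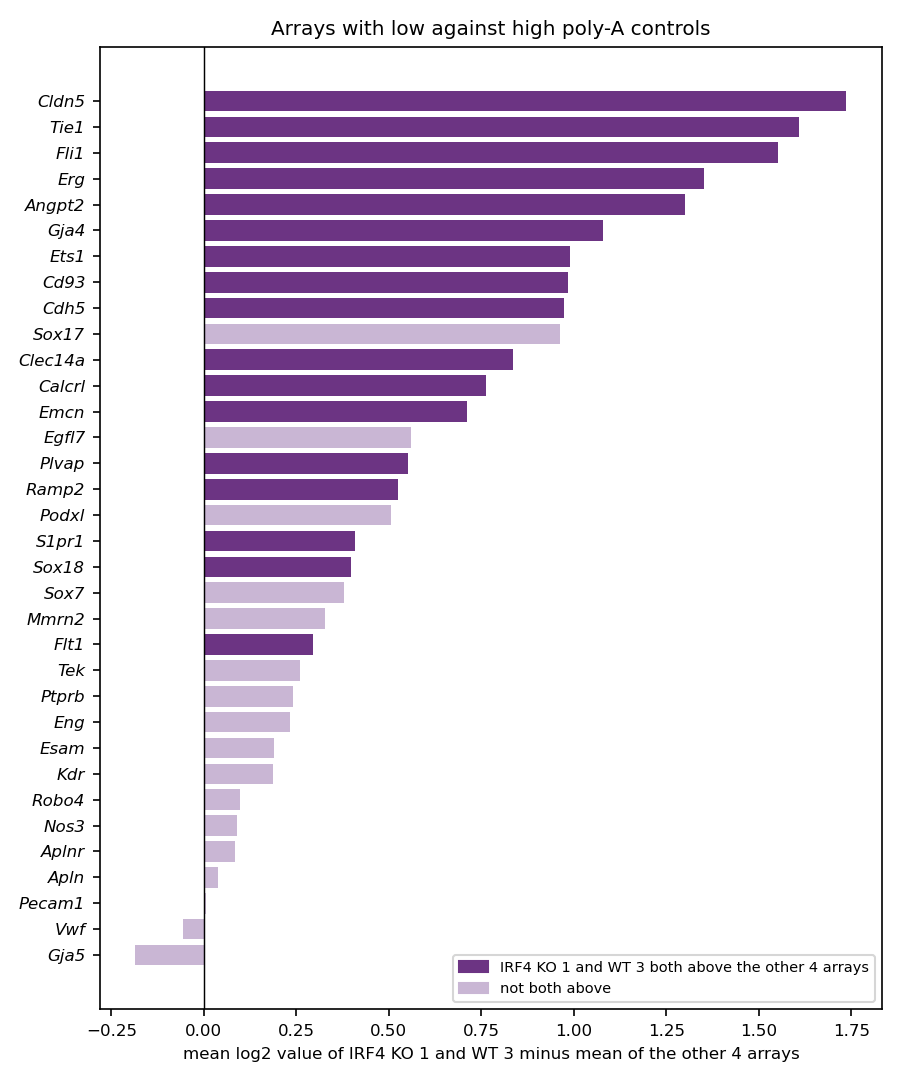
Mean log2 value of IRF4 KO 1 and WT 3, the arrays with low poly-A controls, minus the mean of the other 4 arrays, for each of the 34 endothelial genes. Dark bars mark the 17 genes in which both arrays exceeded all others, and the bars run from 1.74 for Cldn5 to -0.18 for Gja5.

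Since each of these sets of arrays held both genotypes, the genotype difference was also taken within them. Between IRF4 KO 1 and WT 3, with 1 array each and no test, 22 members were higher in IRF4 KO and the median change was 0.13. So were 9126 of all 18194 genes, and 4331 of the 9097 genes above the median gene level. Over the other 4 arrays 19 members were higher and the median change was 0.07. There, 9121 of all genes and 3654 of those above the median gene level were higher. The sign was the same in both sets for 15 members, 11 of them higher and 4 lower, where 26.3% of all genes were higher in both and 25.8% lower in both. Of the 9097 genes above the median gene level, 1743 were higher in both and 2853 lower in both. The change of Egfl7 was 0.58 in both sets, that of Pecam1 0.54 and 0.57, and that of Vwf 0.48 and 0.26. The change of Cldn5 was 0.03 in the pair and -1.19 over the other 4 arrays.

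With the poly-A level as a block over all 6 arrays, Cldn5 and Egfl7 had an unadjusted p under 0.05, where 3.68% of all genes did, with changes of -0.78 (SE 0.25) and 0.58 (SE 0.20). Their limma adjusted p was 0.995. Over the 4 arrays alone, limma called 0 of the 34 members, where 0.0275% of all genes were called, and 5 members had an unadjusted p under 0.05, against 3.87% of all genes. These were Cldn5 (change -1.19, adjusted p = 0.308), Plvap (-0.67), Gja4 (-0.61), Ramp2 (-0.60) and Cdh5 (0.65), the last 4 with an adjusted p of 0.999. The genotypes did not overlap there in 11 members, 6 higher and 5 lower, and in 29.9% of all genes, which 2 arrays against 2 make common. Whether a change differed between the sets was tested with an interaction of genotype and poly-A level in limma. It gave 0 calls among the members, against 0.0824% of all genes, and 3 members with an unadjusted p under 0.05, against 3.33%. These were Gja4 (0.94 between IRF4 KO 1 and WT 3, -0.61 over the other 4 arrays, adjusted p = 0.872), Aplnr (-1.17 and 0.23) and Cldn5, the last 2 with an adjusted p of 1. The set with low poly-A controls has 1 array per genotype, whose spread that test takes to be like that of the other arrays.

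**Figure D5:**
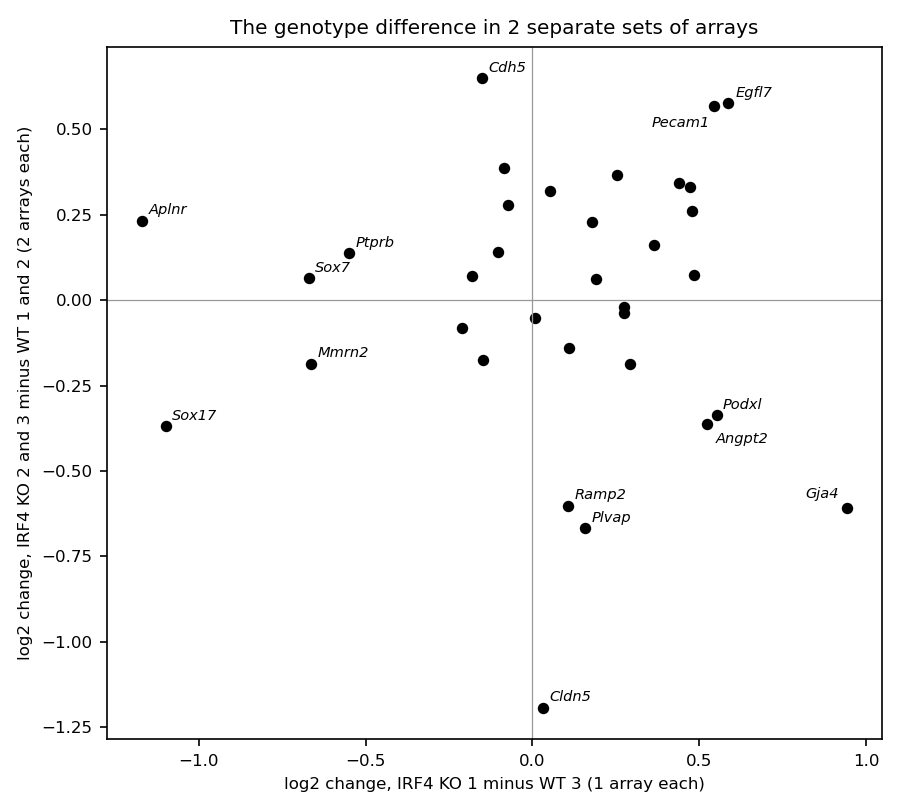
Log2 change of each endothelial gene between IRF4 KO 1 and WT 3 (horizontal, 1 array each) and between IRF4 KO 2 and 3 and WT 1 and 2 (vertical, 2 arrays each). Egfl7 and Pecam1 are positive on both axes and Sox17 is negative on both, while Cldn5 lies at 0.03 and -1.19 and Gja4 at 0.94 and -0.61.

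Lists of other vascular genes also held no called gene. Of 13 angiogenic ligands and co-receptors the IRF4 KO mean was above in 6 and below in 7, 0 passed the test, and the median change was -0.06. Dll4, a Notch ligand of arterial and sprouting endothelium, had the smallest p of the list, at 4.14, 3.53 and 4.04 in IRF4 KO, against 3.54, 3.48 and 3.42 in WT. It overlapped between the genotypes (change 0.42, SE 0.21, limma adjusted p = 0.999). Vegfc, a growth factor for lymphatic and venous endothelium, read 6.50, 6.23 and 5.50 in IRF4 KO, against 7.18, 6.08 and 7.13 in WT. Vegfa, the main ligand of Kdr and Flt1, read 5.87, 5.72 and 5.10 in IRF4 KO, against 6.02, 5.51 and 6.81 in WT. Both overlapped between the genotypes, with changes of -0.72 (SE 0.37) and -0.55 (SE 0.35, limma adjusted p = 0.999 for both).

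Of 21 further endothelial surface, anticoagulant and regulatory genes 11 were higher and 10 lower, with a median change of 0.01. Vcam1, a leukocyte adhesion receptor gene of that list, read 9.66, 9.77 and 9.61 in IRF4 KO, against 8.43, 8.69 and 8.56 in WT. It did not overlap between genotypes (change 1.12, limma adjusted p = 0.252), and smooth muscle cells of an injured wall also express it. Of the 10 smooth muscle markers 5 were higher in IRF4 KO and 5 lower, with a median change of 0.02. Among the 5 higher were Acta2 (1.14), Smtn (1.09) and Tagln (1.08), also without overlap and with a limma adjusted p of 0.252. Their part in the Vcam1 difference was not tested. Arterial markers were higher in 8 of 10 genes and capillary markers in 7 of 10, where 49.7% of all genes were higher. Venous markers were higher in 4 of 6 genes and lymphatic markers in 4 of 7. Only 7 of the arterial, 4 of the capillary, 5 of the venous and 1 of the lymphatic markers lay above the median gene level. Some genes were in more than 1 list. In these lists 0 genes passed the test, where 0% of all genes did. The lymphatic regulator Prox1 was dim at 2.63, 2.61 and 3.21 in IRF4 KO, against 3.89, 2.81 and 3.16 in WT. Platelet markers were higher in 3 of 9 genes, with changes between -0.23 and 0.08.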

How the data were processed

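The data are 6 Affymetrix mouse arrays, with log2 probe set intensities that the authors made and deposited with Affymetrix Expression Console and RMA, per the submitters' processing notes; the sources used here give no versions. RMA corrects background, normalizes between arrays and summarises probes, and it understates changes of dim genes. Of 45101 probe sets, 34958 had 1 gene symbol in the platform annotation, 34754 of these matched RefSeq (GRCm38.p6) by Entrez number, and 0 symbols changed. Each of 18194 genes took its brightest probe set over the 6 arrays. The genotypes were tested in limma 3.58.1 under R 4.3.3 (eBayes without trend, no covariate, two-sided), with Benjamini-Hochberg adjustment over all genes and calls at 0.05. The number of arrays limits the precision. Replicates are biological per the labels, as pools of vessels.

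The members and lists were chosen with earlier results of these data known. All members are named. Of each other list, up to 3 genes with the smallest p could be named, and Ptprc and Col2a1 were named after their values were seen. Arrays were set apart by the mean of 24 poly-A control probe sets, at the largest gap. The fit was also run on data simulated for IRF4 KO against WT over 18194 genes. These were drawn independently for each gene and array, so they lacked the split of IRF4 KO 1 and WT 3 from the other arrays. Correlations between arrays over probe sets lay between 0.951 and 0.990. Alternatives were other scalings, all probe sets, a filter on dim genes, an intensity trend, array weights, a replicate block, the poly-A level as a block and arrays left out. The interaction with the poly-A level was added after seeing the data.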

Additional observations from a re-analysis of the deposited data

How the results depend on the processing

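No endothelial gene was called under any of the alternatives run. Over all genes, 68 were called with array weights, whose estimation stopped before it converged and gave weights from 0.279 to 26.7, and 5 without IRF4 KO 1 and WT 3 together. The smallest adjusted p of a member was 0.0569 with array weights (Egfl7, 0.77) and at least 0.308 elsewhere. The count of members higher in IRF4 KO was 17 as reported. With quantile normalization or with all probe sets of each gene averaged it was 22 (50.8% and 52.1% of all genes). Without IRF4 KO 1 and WT 3 together it was 19 (9121 of 18194 genes), and it ranged from 12 to 26 when 1 array was left out. It was 26 without WT 3, where 49.7% of all genes were higher. Without IRF4 KO 3 it was 24 (8884 of 18194 genes) and without WT 1 it was 12 (8893 of 18194 genes). The median change ranged from -0.20 to 0.23. The count without overlap was 2 as reported, 1 with array median subtraction (6.50% of all genes), 1 with the mean of all probe sets (5.73%), 1 with dim genes left out (5.87%), 4 with quantile normalization (7.33%), 11 without IRF4 KO 1 and WT 3 (29.9%), and 3 to 7 without 1 array (11.0% to 20.2%).

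With the replicate block the median change was 0.023 and 0 genes were called. The deviations of same-numbered arrays from their genotype means correlated at -0.52, 0.37 and -0.62, and IRF4 KO 1 correlated best with WT 3 (0.68). These correlations carry the split of IRF4 KO 1 and WT 3 from the other arrays. They cannot show whether the numbers paired the arrays.

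The sign of the change turned for 28 of the 34 members in at least 1 setting or on another probe set, and the cause was not tested. The 6 others were Apln, Egfl7, Eng, Robo4, Sox18 and Vwf. Pecam1, Sox17, Emcn and Kdr turned only with array weights, whose estimation did not converge. Clec14a turned only on a dim probe set with a mean of 3.38. Cldn5 turned only between IRF4 KO 1 and WT 3, with 1 array each. Signs turned with array weights for Aplnr (0.13), Emcn (-0.33), Ets1 (0.046), Kdr (-0.059), Pecam1 (-0.21), Ptprb (0.032), Sox17 (0.22) and Tie1 (-0.21). With the mean of all probe sets they turned for Calcrl (0.026), Erg (0.00063), Ets1 (0.16), Fli1 (-0.16), Flt1 (0.18), Podxl (0.035) and Ptprb (0.00026). With quantile normalization they turned for Angpt2 (0.0080), Calcrl (0.039), Esam (0.053), Flt1 (0.068) and Podxl (0.017). Without IRF4 KO 1 and WT 3 they turned for Aplnr (0.23), Fli1 (-0.039), Flt1 (0.070), Ptprb (0.14), Sox7 (0.064) and Tie1 (-0.019). Between IRF4 KO 1 and WT 3, with no test, they turned for Angpt2 (0.52), Calcrl (0.0071), Cd93 (-0.074), Cdh5 (-0.15), Cldn5 (0.033), Esam (0.29), Gja4 (0.94), Gja5 (0.11), Plvap (0.16), Podxl (0.55), Ramp2 (0.11), S1pr1 (-0.084) and Tek (-0.10). Other probe sets gave the opposite sign for Calcrl (0.12), Cd93 (-0.41), Clec14a (-0.15), Erg (0.17), Ets1 (0.12, 0.38 and 0.26), Fli1 (-0.39), Flt1 (0.43, 0.19 and 0.11), Mmrn2 (0.12), Podxl (0.11) and Ptprb (0.11). Most of these were dim. Of the 12 other probe sets above the median gene level, 8 kept the sign. Leaving out 1 array gave Angpt2 -0.65 to 0.32, Aplnr -0.46 to 0.027, Calcrl -0.30 to 0.22, Cd93 -0.24 to 0.55, Cdh5 -0.0079 to 0.84, Erg -0.65 to 0.38, Esam -0.17 to 0.13, Ets1 -0.43 to 0.23 and Fli1 -0.50 to 0.60. It gave Flt1 -0.095 to 0.13, Gja4 -0.71 to 0.24, Gja5 -0.16 to 0.10, Nos3 -0.0027 to 0.47, Podxl -0.36 to 0.29, Ptprb -0.33 to 0.10, Sox7 -0.39 to 0.068, Tek -0.19 to 0.23 and Tie1 -0.51 to 0.57. With no turned sign it gave Cldn5 -1.57 to -0.37, Sox17 -0.89 to -0.13, Plvap -0.71 to -0.18, Ramp2 -0.66 to -0.13, Mmrn2 -0.46 to -0.16, Pecam1 0.18 to 0.93, Egfl7 0.39 to 0.80, Clec14a 0.080 to 0.64, Emcn 0.041 to 0.66, Kdr 0.030 to 0.45, S1pr1 0.061 to 0.44, Sox18 0.16 to 0.48, Vwf 0.21 to 0.48, Eng 0.064 to 0.33, Robo4 0.073 to 0.31 and Apln 0.052 to 0.17.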

Other observations

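Rgcc, a cell cycle regulator abundant in capillary endothelium, had the smallest p of the capillary list. It read 3.82, 3.87 and 4.48 in IRF4 KO, against 8.24, 4.78 and 5.02 in WT, a change of -1.95 (SE 0.81, limma adjusted p = 0.999). WT 1 was far above the other WT arrays, and the genotypes did not overlap. Lyve1, a hyaluronan receptor of lymphatic endothelium and some macrophages, read 3.46, 3.91 and 3.81 in IRF4 KO, against 4.16, 4.06 and 4.03 in WT, also without overlap, at a level below the median of all genes (change -0.36, adjusted p = 0.999).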
